A study of Homo sapiens with 24 samples.

Results

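The replication-dependent histone genes encode the linker histone H1 and the core histones H2A, H2B, H3 and H4 that cells deposit on newly copied DNA. They were found in the deposited expression tables by symbol, as HIST, a digit, H and the class, followed by up to 2 letters. The pattern matched 73 symbols, of which 5 pseudogenes were left out. The remaining 68 of 60448 symbols, all protein-coding, held 6 H1, 15 H2A, 18 H2B, 14 H3 and 15 H4 genes. In the GRCh38 annotation of GENCODE version 29, 55 of them lay on chromosome 6, 12 on chromosome 1 and 1 on chromosome 12. A total of 4 members, HIST1H2AA, HIST1H2BA, HIST1H4F and HIST1H4G, had no count in any library.

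RNA sequencing covered 24 libraries of BPH-1 and RWPE-1, 2 immortalized human prostate epithelial cell lines. The BPH-1 groups were vector control (3 libraries), C-Raf parental cells that overexpress wild-type C-Raf (3) and C-Raf metastasis-derived lines (6). Titles of the BPH-1 vector control and parental libraries also name sGluc, a Gaussia luciferase reporter. Those of the BPH-1 metastasis-derived and RWPE-1 libraries do not, and the labels do not say whether these cells carry it. The RWPE-1 groups were vector control (1), C-Raf parental cells (4) and C-Raf metastasis-derived lines (7). The metastasis-derived lines also carry the C-Raf construct, and were grown for about a week in culture from macroscopic tumors of mice injected with parental cells. Whether lines that share a name (both R075 lines, or LN1A and LN1B) came from the same mouse is not stated, and the tests take each line as a separate sample. The BPH-1 lines were titled bone R069, R071, R072, R074 and R075 and thymus R075, and the titles and treatment labels of both R075 lines name different sites. The RWPE-1 lines were titled LN1A, LN1B, Spine, Spine2, Bone4, Bone5 and Bone6. Counts came in 4 tables. The 6 BPH-1 metastasis-derived libraries were a table of their own and the other 6 BPH-1 libraries another, so that in BPH-1 the effect of stage cannot be told apart from that of the table. RWPE-1 was divided over a table of 5 (vector control, parental 1, LN1A, LN1B and Spine) and a table of 7 (the rest). The labels name the same mRNA library kit for all libraries, but do not describe the preparation of each table. A different preparation of the table with the BPH-1 metastasis-derived libraries, which held many more counts of RNAs without a poly(A) tail, cannot be told apart from stage in any BPH-1 result.

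Histone mRNAs of this kind are made in S phase, when DNA is replicated, and are unusual among animal mRNAs in that they normally end without a poly(A) tail. Their 3' end is a short stem-loop, bound by the stem-loop binding protein SLBP and cut a few bases downstream by a complex that includes the U7 small nuclear RNA. Libraries primed or selected on poly(A) therefore hold few of them, and mostly read forms that run on to a polyadenylation signal further downstream, which arise in differentiated or slowly dividing cells. The stem-loop was looked for in the 200 bases after the stop codon as a 6 base pair stem that starts with GG and a 4 base loop that starts with TT, with at least 5 pairs formed. Of the 34 members whose annotated transcripts extend at least 40 bases past the stop codon, 29 held it (85.3%), against 0.562% of the other protein-coding genes. The other 34 members were annotated too short to search. The first base of the stem-loop stood 23 to 57 bases after the stop codon (median 36), and the 29 members shared 5 different stem-loop sequences.

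The sequences below are those of named members on which the count results turn, read 5′ to 3′ on the transcribed strand of GRCh38, with the 16 bases of the stem-loop in capitals. HIST3H2A (minus strand, stem-loop at chr1:228457369-228457384) and HIST1H2BN (plus strand, chr6:27865778-27865793) led the counts of the shallow libraries described next. The stem-loop printed and counted for HIST1H2BN starts just past the annotated end of HIST1H2AL (chr6:27865747) on the same strand. It was found through a HIST1H2BN transcript that ends there, so its position is that of the HIST1H2AL 3' end. HIST1H2AC (plus strand, chr6:26124669-26124684), HIST2H4A (plus strand, chr1:149833032-149833047) and HIST1H4J (plus strand, chr6:27824459-27824474) stood for members that were high in the deeper libraries. HIST1H4I (plus strand, chr6:27139654-27139669) was, like HIST3H2A, far higher in the shallow than in the deeper libraries. HIST1H2AG (plus strand, chr6:27133515-27133530) was the member with 5 of 6 pairs.
HIST3H2A: acataaaGGCTCTTTTCAGAGCCacctact
HIST1H2BN: atacaacGGCTCTTTTCAGAGCCaccta
HIST1H2AC: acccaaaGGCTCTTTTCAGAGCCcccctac
HIST2H4A: tcccaaaGGCCCTTTTTAGGGCCgaccact
HIST1H4J: aataaaaGGCCCTTTTCAGGGCCacccta
HIST1H4I: ctaaaaaGGCCCTTTTTAGGGCCcctaagc
HIST1H2AG: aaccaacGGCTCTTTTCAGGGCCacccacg
The annotation of HIST1H4J ended 6 bases after the stem-loop, and the HIST1H2BN transcript that held the printed stem-loop ended 5 bases after it. Another HIST1H2BN transcript was annotated for 3575 bases past its stop codon. The annotated HIST1H2AC transcript went on for 1114 bases after the stem-loop and that of HIST3H2A for 390. The annotated 3' ends of HIST1H4C (51 bases) and HIST1H1E (57 bases) held no stem-loop of this definition, and HIST1H1C was annotated only to its stop codon.

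The promoters of the 57 members found in the RefSeq table (GRCh38.p14, 250 bases before the start) differed by class. The letters CCAAT, searched on both strands, were in 82.5% of the members against 32.0% of all 35116 promoters, in every H1, H2A, H2B and H3 promoter and in 2 of 12 H4 promoters. The octamer ATTTGCAT, searched on both strands, was in 9 of 12 H2A and 13 of 16 H2B promoters and in no H1, H3 or H4 promoter, against 1.63% of all. The letters AAACACA, known from H1 promoters, were in all 6 H1 promoters and in no promoter of another class, against 4.82% of all. TATAAA on the transcribed strand was in 59.6% of members against 6.80% of all. The windows below show the H1 letters of HIST1H1C and HIST1H1E and the octamer that HIST1H2AC and HIST1H2BC share between their opposed starts, each read on the strand of its gene with the motif in capitals. ATGCAAAT is the octamer on the other strand. The windows lie at chr6:26056571-26056600 (minus strand) for HIST1H1C, chr6:26156201-26156230 (plus) for HIST1H1E and chr6:26124031-26124060 for HIST1H2AC (plus) and HIST1H2BC (minus), whose windows are the same bases read from either side.
HIST1H1C: tgaggtggaacAAACACAacttgggagcag
HIST1H1E: tgaggtgtaacAAACACAactcgggatccg
HIST1H2AC: tgggcagagctATGCAAATgaggtatgaaa
HIST1H2BC: tttcatacctcATTTGCATagctctgccca
These matches describe the letters of the promoters and were not compared with the counts.

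Total counts per library ran from 9035970 to 52851374. Protein-coding counts ran from 20573660 to 42016634 in 21 libraries, but were 464745 in bone R071, 132430 in bone R074 and 111188 in bone R075. These 3 shallow BPH-1 libraries stood apart from the other 3, bone R069, bone R072 and thymus R075, which are called the deeper libraries. A gene needed 3 counts to reach 6.46 to 27.0 CPM (counts scaled to 1000000 protein-coding counts) in the shallow libraries, against at most 0.146 CPM in the others. After TMM scaling 3 counts were 12.4 CPM in R071, 23.98 in R074 and 60.6 in bone R075, and at most 0.236 CPM elsewhere. Shallow values under these levels rest on 1 or 2 counts and are printed without being read as a difference, and results are given with and without the shallow libraries. Of 9 epithelial markers KRT5, KRT14, KRT17, CDH1 and TP63 were above 0 in every library, with KRT5 at 650.1 CPM or more (TMM-scaled). EPCAM was above 0 in 1 of 3 shallow libraries and KRT8 and KRT18 in 2 of 3, and KRT19 was at 0 in 1 library, Spine2.

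The share of protein-coding counts that fell on histone genes was far higher in the BPH-1 metastasis-derived libraries than in any other library. It was 0.00638%, 0.00640% and 0.00600% in BPH-1 vector control and 0.00540%, 0.00569% and 0.00485% in C-Raf parental cells. In the deeper metastasis-derived libraries it was 0.200% (R069), 0.163% (R072) and 0.227% (thymus R075). The shallow libraries had 1.41% (R071), 0.461% (R074) and 1.22% (bone R075). No BPH-1 metastasis-derived library overlapped any of the other 18, whose highest share was 0.0363%. The median of the 3 deeper libraries was 37.1 times, and that of all 6 was 63.7 times, the parental median. Counting error was small beside these differences: the 95% Wilson interval that was widest relative to its share, that of R074 with 611 histone counts, ran from 0.426% to 0.499%. Wilson intervals and limits set by 3 counts cover counting error only. In such bulk libraries, more cells that express a gene and more RNA per cell cannot be told apart.

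**Figure D1:**
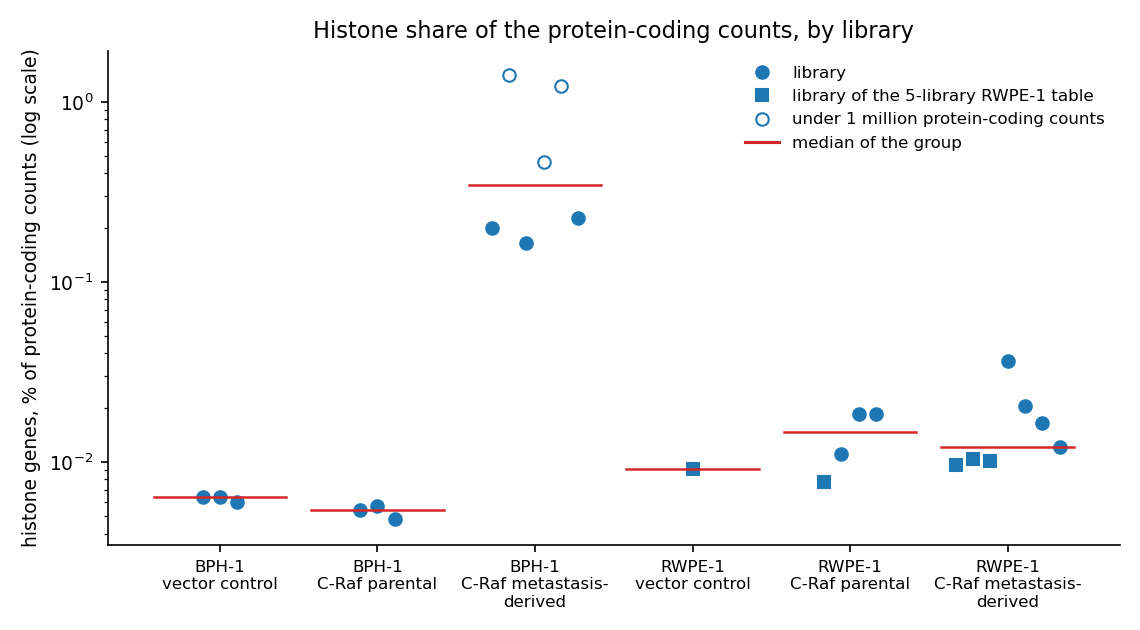
Share of protein-coding counts on the 68 histone genes (percent, log scale) for each of 24 libraries in 6 groups, with the group median as a line, the shallow libraries as open circles and the 5-library RWPE-1 table as squares. The 6 BPH-1 metastasis-derived libraries lie between 0.163% and 1.41%, above all other libraries (0.00485% to 0.0363%).

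Measured against all counts of a library instead of its protein-coding counts, 4 of the 6 remained above the rest. The histone shares of all counts were 0.140% (R069), 0.0636% (R072) and 0.190% (thymus R075), and 0.0724% in the shallow R071, against 0.00476% to 0.0354% in the other 18. R074 had 0.00219% and bone R075 0.00330%, below every library of the other 3 tables. In the shallow libraries 93.3% to 97.5% of all counts were assigned to RN7SL1, a noncoding RNA of the signal recognition particle.

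All 5 histone classes were higher in the deeper libraries than in parental cells. Summed over a class, before TMM scaling and in ascending order, the H1 genes had 6.39, 7.55 and 8.50 CPM in parental cells and 327, 329 and 562 CPM in the deeper libraries. The H4 genes had 9.02, 9.05 and 9.67 CPM against 162, 542 and 670.4 CPM. H3 had 2.94, 4.46 and 5.10 CPM against 135, 291 and 309 CPM. Neither group overlapped the other in any class. The ratio of medians was 43.6 for H1, 21.8 for H2A, 31.9 for H2B, 65.4 for H3 and 59.9 for H4. The shallow libraries differed in the order of the classes. Their H2A sums were 2562, 9420 and 10379.8 CPM, above the deeper 180, 305 and 332 CPM, while their H1 sums were 27.0, 94.7 and 189 CPM, below the deeper libraries and, for the lowest, within the range of the other 18 libraries (4.85 to 49.6 CPM).

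**Figure D2:**
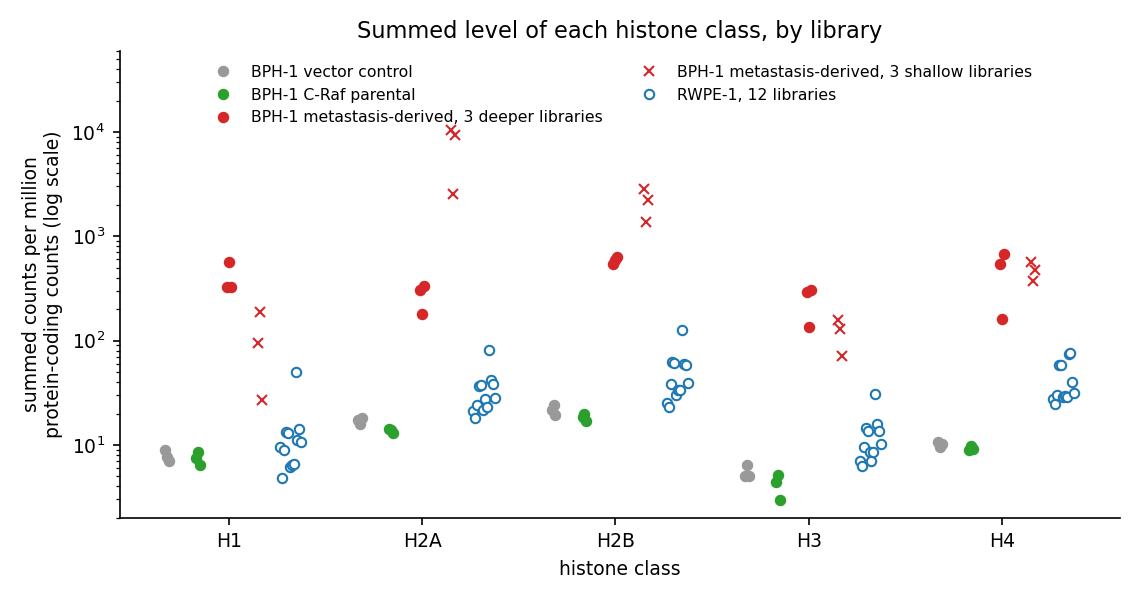
Summed level of each histone class in CPM without TMM scaling (log scale), with each point a library. The deeper BPH-1 metastasis-derived libraries lie above the vector control, parental and RWPE-1 libraries in all 5 classes, and the shallow libraries reach 10379.8 in H2A but only 27.0 to 189 in H1.

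Gene by gene, edgeR's quasi-likelihood test between the 6 BPH-1 metastasis-derived and the 3 parental libraries covered 58 members, and 57 of them rose at a Benjamini-Hochberg adjusted p below 0.05 and 0 fell. Of all 13528 genes tested, 9.53% rose and 6.01% fell. Only 27 of the 58 also passed the filter on low counts when parental cells were fitted with vector control. The other 31 were tested because they were high in the metastasis-derived libraries, so their rise was largely set by the filter. Among the named genes these were HIST1H1A, HIST1H1D, HIST1H2AL, HIST1H2BE, HIST2H3D, HIST1H4C and HIST1H4I, whose p-values in this comparison carry that limit. Of the 27, 26 rose and 0 fell, with a median log2 fold change of 5.31, and 5.84 with the deeper libraries. Without the shallow libraries 57 of 58 members again rose and 0 fell, against 20.9% and 16.8% of all genes. The median log2 fold change of the members was 6.03 with all 6 libraries (range 2.13 to 10.81) and 6.24 with the deeper 3 (2.22 to 9.55), while that of all genes was -0.19 and 0.08. The member that did not pass in either fit was HIST2H4B, whose coding sequence is identical to that of HIST2H4A, so that reads cannot be divided between them with certainty. In parental cells 1 tested member, HIST1H4L, had no count, and its median in the deeper libraries was at least 33.5-fold higher than the level 3 counts give in the smallest parental library. With this bound in place of its fitted value the median of the members was 6.21.

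HIST1H1C and HIST1H1E, linker histone genes whose products bind the DNA that enters and leaves the nucleosome, were among the highest members of the deeper libraries. HIST1H1C stood at 5.42, 5.82 and 5.14 CPM (TMM-scaled, as all single-gene levels from here on) in parental cells, at 133, 464 and 174 CPM in R069, R072 and thymus R075, and at 136, 87.9 and 40.4 CPM in the shallow R071, R074 and bone R075. Of the 6, 5 exceeded the parental cells, and the value of bone R075 rests on 2 counts. R072 was the highest, by less without TMM scaling (286 CPM, against 145 CPM in R069 and 177 CPM in thymus R075). For HIST1H1C the log2 fold change was 4.88 ± 0.83 (SE) with all 6 libraries (edgeR adjusted p = 0.000938) and 5.62 ± 0.58 with the deeper 3 (adjusted p = 0.00213). HIST1H1E had 1.00, 1.03 and 0.17 CPM in parental cells, 116, 330.2 and 99.2 CPM in the deeper libraries, and 45.4, 95.9 and 0 CPM in the shallow ones. It was thus above parental cells in all libraries except bone R075, where it had no count. Its log2 fold change was 7.22 ± 1.13 with all 6 libraries (edgeR adjusted p = 0.000499). HIST1H1D and HIST1H1A rose as well, with log2 fold changes of 7.69 and 6.23 against the deeper libraries. HIST1H1A rested on 4 counts in all parental libraries together, which gave a ratio of summed counts of 86.5 (exact 95% interval 33.4 to 320, counting error only). The linker gene HIST1H1B did not pass the filter on low counts.

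The 4 named H2A genes did not move alike. HIST1H2AC had 4.46, 4.55 and 4.59 CPM in parental cells, 61.9, 49.9 and 84.3 CPM in the deeper libraries and 140, 48.0 and 121 CPM in the shallow ones, a log2 fold change of 4.04 ± 0.64 (edgeR adjusted p = 0.000572). All 6 libraries lay above parental cells and the deeper and shallow ones overlapped. HIST3H2A had 4.46, 3.80 and 4.21 CPM in parental cells and only 13.8, 28.6 and 13.6 CPM in the deeper libraries, but 19288, 2406 and 20835 CPM in the shallow ones. The shallow and deeper libraries did not overlap, and the log2 fold change of HIST3H2A fell from 10.51 ± 2.72 (edgeR adjusted p = 0.0157) with all 6 to 2.22 ± 0.36 (adjusted p = 0.00621) with the deeper 3. With all 6, leaving out any 1 parental library ended the call (edgeR adjusted p = 0.0591 to 0.0610). HIST1H2AL showed the same order with 0.19, 0.12 and 0.03 CPM in parental cells, 7.31, 6.46 and 6.31 CPM in the deeper and 211, 112 and 100.9 CPM in the shallow libraries. It lies within the annotated span of HIST1H2BN on the same strand, so that its counts may belong in part to that gene. HIST1H2AG, by contrast, had 50.1, 45.0 and 64.0 CPM in the deeper libraries and 74.4, 7.99 (1 count) and 0 CPM in the shallow ones, from 1.43, 1.40 and 1.34 CPM in parental cells.

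Among the H2B genes, HIST1H2BN, HIST1H2BC and HIST1H2BE were also far higher in the shallow than in the deeper libraries. HIST1H2BN had 0.59, 0.65 and 0.17 CPM in parental cells, 26.2, 34.4 and 29.6 CPM in the deeper and 2941, 583 and 2281 CPM in the shallow libraries. HIST1H2BC had 0.62, 0.69 and 1.03 CPM in parental cells, 86.4, 71.1 and 93.7 CPM in the deeper and 1173, 216 and 1131 CPM in the shallow libraries. None of these groups overlapped, and the log2 fold changes with the deeper 3 alone were 6.02 ± 0.49 for HIST1H2BN, 6.80 ± 0.29 for HIST1H2BC and 5.81 ± 0.70 for HIST1H2BE. HIST2H2BE, a gene known to give a polyadenylated form as well, had 1.84, 2.34 and 2.19 CPM in parental cells, 107, 271 and 126 CPM in the deeper and 82.6, 95.9 and 80.8 CPM in the shallow libraries, so that all 6 lay above parental cells. Its log2 fold change was 5.798 ± 0.74 (edgeR adjusted p = 0.000173). The smallest rise of any called member was that of HIST1H2BK, also an H2B gene, with a log2 fold change of 2.13 ± 0.67 (edgeR adjusted p = 0.0414) and 2.76 ± 0.37 with the deeper 3. HIST1H2BK was chosen after its values were seen.

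All 11 tested H3 genes rose, where 9.53% of all genes did with all 6 libraries. Only 5 H3 genes passed the filter when parental cells were fitted with vector control. The rise of the other H3 genes was largely set by the filter. HIST2H3A and HIST2H3C encode the same protein, H3.2, from identical coding sequences and had equal values in most libraries. HIST2H3C had 1.12, 1.03 and 0.58 CPM in parental cells, 117, 54.5 and 85.2 CPM in the deeper libraries, and 8.26, 7.99 and 0 CPM in the shallow ones, all from under 3 counts. Its gene overlaps HIST2H4A on the other strand, and the deposited values do not tell the strands apart. HIST2H3D had 0.12, 0.09 and 0.03 CPM in parental cells, 9.13, 9.06 and 8.83 CPM in the deeper and 186, 104 and 141 CPM in the shallow libraries, with no overlap. HIST1H3H had 0.53, 0.72 and 0.58 CPM in parental cells, 14.3, 16.7 and 21.9 CPM in the deeper libraries and 33.0, 0 and 0 CPM in the shallow ones. Its log2 fold change was 4.69 ± 0.73 (edgeR adjusted p = 0.000491) and 4.89 ± 0.29 with the deeper 3.

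Of 12 tested H4 genes 11 rose, where 9.53% of all genes did with all 6 libraries. Only 5 H4 genes passed the filter when parental cells were fitted with vector control. HIST1H4C and HIST1H4I were not among these 5, and the rise of the H4 genes outside them was largely set by the filter. The 15 H4 genes of the tables hold 13 different coding sequences but only 2 different proteins, and 14 of them encode the same one. HIST1H4C, the H4 gene often used as an S phase marker, had 0.06, 0.09 and 0 CPM in parental cells (2, 3 and 0 counts), 32.2, 18.9 and 50.3 CPM in the deeper libraries and 4.13, 39.96 and 0 CPM in the shallow ones. The deeper libraries lay far above parental cells, and the shallow values rest on 1, 5 and 0 counts. From summed counts the deeper libraries were 691 times the parental cells (exact 95% interval 296 to 2130, counting error only), and the fitted log2 fold change was 8.80 ± 1.07 (edgeR adjusted p = 0.000164) with all 6 and 9.24 ± 0.72 with the deeper 3. HIST2H4A had 4.58, 3.36 and 5.58 CPM in parental cells, 250, 104 and 337 CPM in the deeper and 161, 39.96 and 20.2 CPM in the shallow libraries, the last from 1 count. HIST1H4J rose from 1.09, 1.495 and 1.44 CPM to 52.3, 31.3 and 66.0 CPM in the deeper libraries, was at 0, 95.9 and 0 CPM in the shallow ones, and shares its coding sequence with HIST1H4K. HIST1H4I resembled HIST3H2A, with 0.12, 0.31 and 0.14 CPM in parental cells, 1.01, 1.497 and 0.82 CPM in the deeper and 884, 144 and 949 CPM in the shallow libraries. Its log2 fold change was 10.43 ± 2.57 with all 6 libraries (edgeR adjusted p = 0.0118) and 2.53 ± 0.51 with the deeper 3 (adjusted p = 0.0114). HIST4H4, the only member on chromosome 12, had 0.59, 0.65 and 0.27 CPM in parental cells and 57.7, 32.9 and 64.0 CPM in the deeper libraries, a log2 fold change of 6.70.

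**Figure D3:**
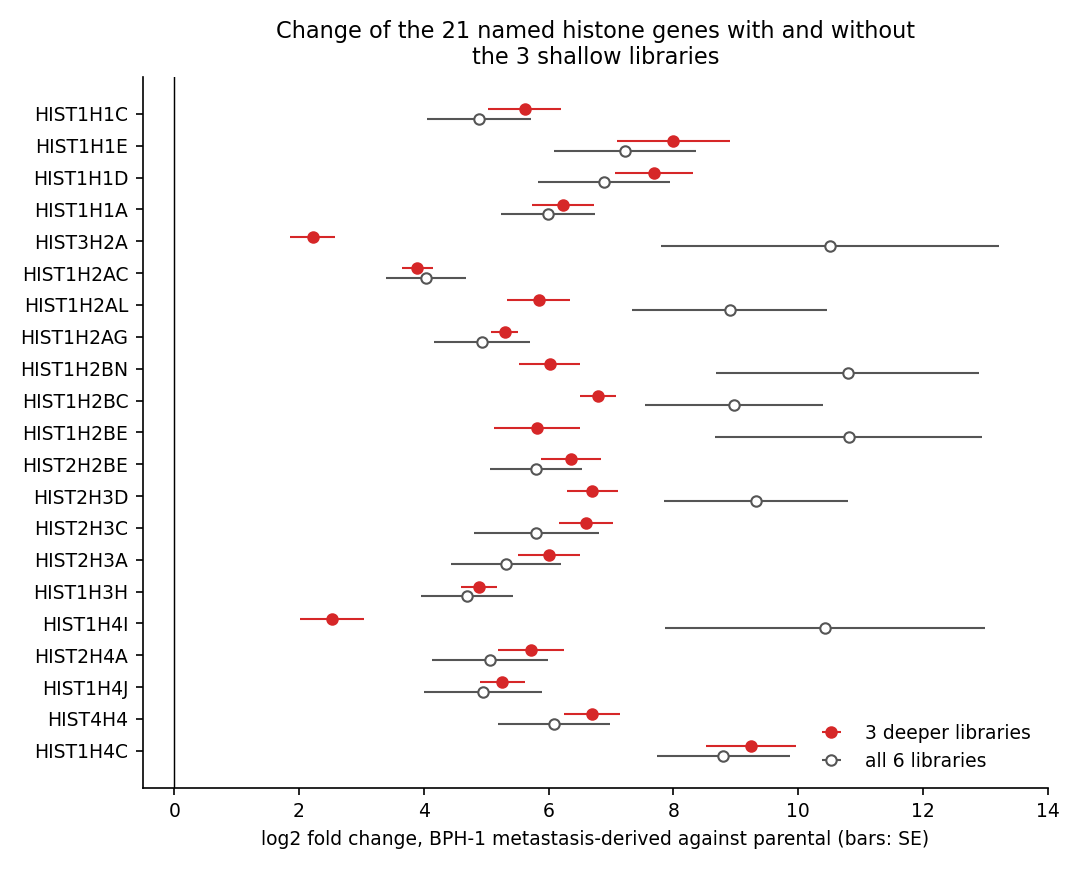
Log2 fold change of the 21 named histone genes between BPH-1 metastasis-derived and parental libraries (points, with bars of 1 SE), fitted with all 6 metastasis-derived libraries (open) or the 3 deeper ones (filled). All points lie above 0, and those of HIST3H2A (10.51 and 2.22) and HIST1H4I (10.43 and 2.53) lie furthest apart.

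The make-up of the histone counts differed between the shallow libraries and all others. HIST3H2A alone took 71.4%, 49.3% and 76.0% of the histone counts of R071, R074 and bone R075, and the 5 highest genes together 93.3%, 74.3% and 95.1%. In the deeper libraries the highest gene took 13.6% (HIST2H4A in R069), 17.5% (HIST1H1C in R072) and 15.1% (HIST2H4A in thymus R075), and the 5 highest 39.3%, 49.1% and 37.2%. The 5 highest took 46.1% to 63.8% in the other 18 libraries. The deeper libraries thus spread their histone counts over more genes than the shallow ones. They had 60 to 62 members above 0 against 27 to 41, but also 33629 to 62916 histone counts against 611 to 6540. The number of members above 0 depends on this depth.

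**Figure D4:**
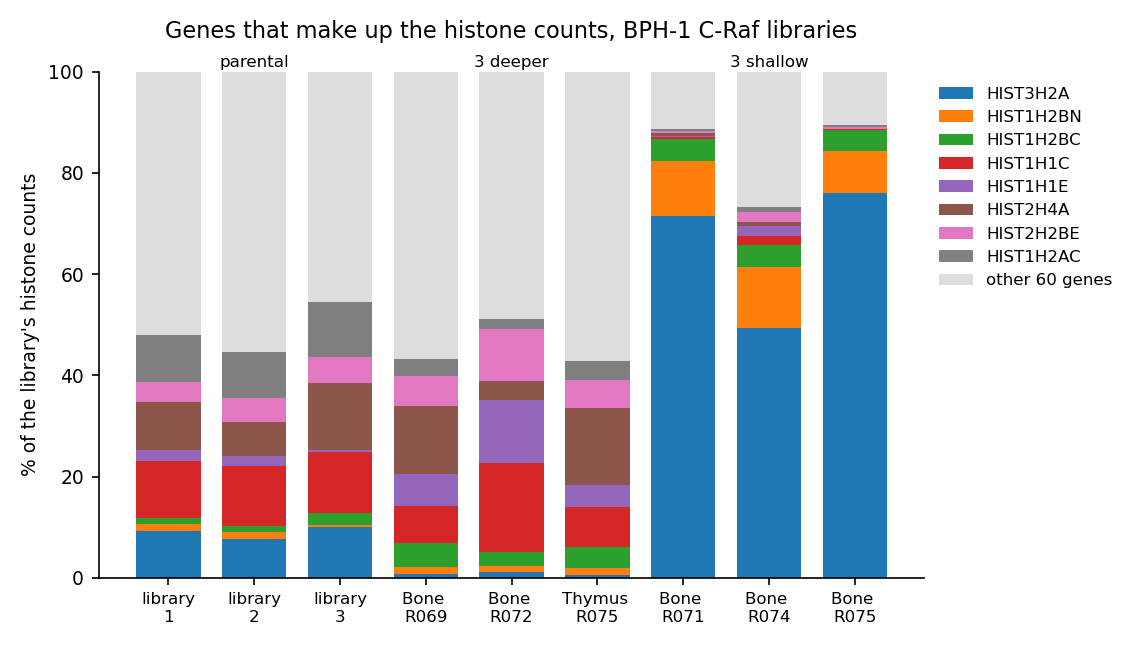
Percent of each library's histone counts that fell on 8 genes and on the other 60 together, in the BPH-1 C-Raf parental libraries and the deeper and shallow metastasis-derived libraries. HIST3H2A takes 49.3% to 76.0% in the shallow libraries and a small part in the deeper ones.

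Ranked by level per kilobase of annotated exon, the order of the genes changed between parental cells and the deeper libraries. HIST1H2BK was first in parental cells (median 14.3 CPM per kilobase) and eighth in the deeper libraries (79.5). HIST1H1C went from 8.45 to 272 CPM per kilobase, HIST1H1E from 1.32 to 154 and HIST1H4C from 0.143 to 74.1, whereas HIST3H2A went from 4.71 to 15.4. On this scale HIST1H1C was the highest of the 68 members in the deeper libraries, HIST1H1E the next, and HIST3H2A the 39th. Levels per kilobase depend on the annotated length, which for HIST1H1C leaves out the 3' end.

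Genes with short and long annotated 3' ends both rose. A long end means a transcript that runs more than 200 bases past the stop codon or is spliced, as in 26 members, and the other 42 have a short one. In the fit with all 6 libraries 34 of 34 tested short genes and 23 of 24 tested long genes rose, with median log2 fold changes of 6.66 and 5.37. With the deeper libraries alone the medians were 6.50 (range 2.76 to 9.55) for short and 5.82 (2.22 to 7.34) for long ends. Most short-end genes passed the filter only through the metastasis-derived libraries. Among the 27 that passed without them, 7 of 7 short and 19 of 20 long genes rose, with medians of 5.71 and 5.31 with all 6 libraries. Long-end genes took 61.2% to 64.7% of the histone counts in parental cells, 47.0% to 61.4% in the deeper libraries and 81.8% to 96.5% in the shallow ones. Of the deeper libraries thymus R075 (61.4%) lay within the parental range and the other 2 below it, and the shallow libraries lay above both.

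The H2A and H2B genes lie partly in pairs that are transcribed away from each other, and members of a pair did not always rise alike. A total of 11 such pairs were annotated, with 218 to 330 bases between the starts, and 10 had both genes tested. In the fit with the deeper libraries the gap between the log2 fold changes of a pair had a median of 0.59 (range 0.01 to 4.42). HIST1H2BG and HIST1H2AE were the closest, at 6.56 and 6.55. The widest gaps were those of HIST1H2BK and HIST1H2AH (2.76 and 7.18), HIST3H2A and HIST3H2BB (2.22 and 5.84) and HIST1H2BC and HIST1H2AC (6.80 and 3.90). In each of these the gene with the smaller rise had the higher parental level.

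Against all other tables the direction was the same. In an edgeR fit over all 24 libraries, the BPH-1 metastasis-derived libraries were compared with the average of the other 5 groups, and 58 of 61 tested members were higher and 0 lower, against 35.3% and 26.5% of all 15358 genes tested. The members not called were HIST1H1B, HIST1H4K and HIST2H4B. Of the 61, 37 also passed the filter in a fit without the BPH-1 metastasis-derived libraries, and 35 of these were higher and 0 lower, while the rest entered through the group in which they are high. Without the shallow libraries 58 of 60 were higher. Over 60 members, 56 had all 3 deeper libraries above all 18 others, as had 13.8% of all genes tested. The 4 without such a gap were HIST1H1B, HIST1H2BK, HIST1H3E and HIST2H4B. Only 37 of these 60 members passed the filter without the BPH-1 metastasis-derived libraries. For the rest of the 60 the gap was largely set by the filter. This comparison sets a table that holds a single group against the rest, so that group and table cannot be told apart.

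Most other listed RNAs without a poly(A) tail were higher in the deeper libraries. Of 20 such genes on a list, among them small nuclear, small nucleolar and Cajal body RNAs, 17 had all 3 deeper libraries above the other 18 libraries in share of all counts. Those that did not were RN7SL2, RN7SL3 and VTRNA1-1, and RN7SL2 and RN7SL3 were at 0 in every BPH-1 metastasis-derived library. RN7SL1 took 13.1%, 30.3% and 4.60% of all counts in R069, R072 and thymus R075, and at most 0.00932% in the other 18. RN7SK, a regulator of transcription elongation, took 1.23%, 0.236% and 2.10% in the deeper libraries and at most 0.0022% in the other 18. SNORD3A, the U3 small nucleolar RNA, took 1.39%, 0.907% and 0.764%. The nuclear RNA MALAT1, whose 3' end is formed without a standard poly(A) tail, took 2.70%, 1.39% and 1.47%, against 0.0319% to 0.102%. NEAT1, also a nuclear RNA, was higher as well. It is on the list, but is not taken here as lacking a poly(A) tail in all its forms. In the shallow libraries all 3 were above the other 18 for 5 of the 20 genes. The share of all genes that did so on this measure is not given for either count, so neither count is read as particular to these RNAs. In CPM, a different measure, 13.8% of the protein-coding genes tested had all 3 deeper libraries above the other 18. Whether the histone counts and these RNAs rose for a common reason was not tested.

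Listed genes of histone variants, most of them replication-independent with polyadenylated mRNAs, did not follow. H2AFX, which is on the list, is not taken here as polyadenylated only. Of 11 such genes 0 rose and 0 fell in the edgeR test with all 6 libraries, where 9.53% and 6.01% of all genes did. In the fit with the deeper libraries 0 rose and 2, H2AFX and H2AFY2, fell, where 20.9% and 16.8% of all genes did. So few genes are not read as called less or more often than others. The median log2 fold change of the 11 genes was -0.09 in that fit. H2AFZ, the H2A.Z gene, had 237, 242 and 229 CPM in parental cells and 171, 105 and 217 CPM in the deeper libraries, but 3003, 871 and 11992 CPM in the shallow ones. H3F3A, which encodes the replacement histone H3.3, had 139.9, 153 and 147 CPM, then 116, 104 and 179.7 CPM, and 6862, 1215 and 13163 CPM in the shallow libraries. For H2AFZ the deeper libraries lay below parental cells and for H3F3A they overlapped them, while the shallow ones stood far above for both.

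With the deeper libraries, genes that make, process or use histone mRNA were called about as often as genes overall. With all 6 libraries 0 of 14 genes for histone gene transcription, mRNA processing and decay were called in edgeR. With the deeper libraries 3 rose and 3 fell, where 20.9% and 16.8% of all genes did. CASP8AP2, the 3' end processing factor FLASH, had a log2 fold change of 1.85 ± 0.31 (edgeR adjusted p = 0.00677), NPAT, a coactivator of histone gene transcription, of 0.96 ± 0.22 (adjusted p = 0.0175), and ZNF473, a U7 associated zinc finger protein, of 0.92 ± 0.17 (adjusted p = 0.00839). LSM10, a protein of the U7 particle, had an edgeR value of -1.31 ± 0.34 (adjusted p = 0.0262), CPSF3, the nuclease of the cleavage complex, -0.98 ± 0.14 (adjusted p = 0.00409) and UPF1, which acts in histone mRNA decay, -0.75 ± 0.16 (adjusted p = 0.0148). SLBP itself had 42.9, 43.4 and 44.2 CPM in parental cells and 41.8, 37.3 and 45.7 CPM in the deeper libraries, which overlapped. Of 6 histone chaperone genes 0 rose and 2, ASF1B and HIRA, fell in that fit, and with all 6 libraries 0 were called. Of 23 S phase genes 1 rose, CCNE2 (cyclin E2), and 7 fell with the deeper libraries, against 0 and 1 with all 6. Of all genes 20.9% rose and 16.8% fell with the deeper libraries and 9.53% and 6.01% with all 6. With the deeper libraries the list had a median log2 fold change of -0.53. TK1, thymidine kinase, was at 151, 149 and 146 CPM in parental cells and 60.6, 31.8 and 62.4 CPM in the deeper libraries, without overlap.

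Markers of other cell types moved in part with the same libraries. The summed level of 6 stromal markers was 11.3 to 11.5 CPM in parental cells, 48.4 to 68.7 CPM in the deeper and 55.9 to 273 CPM in the shallow libraries. In the other 18 libraries the sum ran from 7.35 to 55.9 CPM and overlapped the deeper ones. COL1A1 was at 46.5 to 67.6 CPM in the deeper, 39.96 to 235 CPM in the shallow and 7.35 to 27.9 CPM in the other 18 libraries. The remaining stromal markers of the deeper libraries lay within the range of the 18, with COL3A1 at most 0.489 CPM against 20.4 and DCN at most 0.0355 against 6.83. Of 4 endothelial markers the sum was 1.47 to 1.54 CPM in parental cells, 2.38 to 39.0 CPM in the deeper and 0 to 79.9 CPM in the shallow libraries. VWF reached 38.4 CPM in the deeper libraries, and VWF (up to 79.9 CPM) and PECAM1 (up to 33.0 CPM) were the endothelial markers above 0 in the shallow ones. The 9 haematopoietic markers summed to 10.95 to 25.1 CPM in the deeper libraries and 27.1 to 30.9 CPM in parental cells, mostly CD68. CSF1R was higher in the deeper libraries (2.09 to 3.39 CPM) than in the other 18 (0.0735 to 1.33), ITGAM reached 0.946 CPM against 0.515, and PTPRC, MS4A1, LYZ and CD3E were at or under 0.158 CPM in the deeper libraries. In the shallow libraries HBB reached 182 CPM and 7 of 9 haematopoietic markers were at 0. Their part in the histone levels was not tested.

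In BPH-1 the histone genes moved by small amounts and in both directions from vector control to C-Raf parental cells. Between parental cells and vector control, which share a table, edgeR tested 27 members, of which 4 were higher and 8 lower, against 30.4% and 29.4% of all 13245 genes tested. The median log2 fold change of the members was -0.17. These replicates varied little, with a common biological coefficient of variation of 2.43%, and the labels do not say that they came from separate cultures, so that p-values may measure technical spread only. HIST2H2BE had 2.96, 3.73 and 2.86 CPM in vector control and 1.84, 2.34 and 2.19 CPM in parental cells, without overlap (log2 fold change -0.59 ± 0.15, edgeR adjusted p = 0.000969). HIST1H2AC had 6.17, 5.21 and 6.21 CPM against 4.46, 4.55 and 4.59 CPM (-0.40 ± 0.10, edgeR adjusted p = 0.00117). Both groups were apart for this gene too, as they were for HIST3H2A (5.20, 4.97 and 5.17 CPM against 4.46, 3.80 and 4.21 CPM, log2 fold change -0.32 ± 0.10, edgeR adjusted p = 0.00832). HIST1H3H fell likewise, by 0.88 on the log2 scale (edgeR adjusted p = 0.00488).

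The 4 members that were higher in parental cells were at low levels. HIST1H4J had 0.69, 0.79 and 0.98 CPM in vector control and 1.09, 1.495 and 1.44 CPM in parental cells (log2 fold change 0.69 ± 0.22, edgeR adjusted p = 0.00861). HIST1H1E had 0.38, 0.48 and 0.19 CPM against 1.00, 1.03 and 0.17 CPM, so that the groups overlapped, and its call (1.08 ± 0.41, edgeR adjusted p = 0.0255) was lost with DESeq2 (adjusted p = 0.276). The others were HIST1H2AI and HIST2H2BF, and the remaining lower ones HIST3H2BB, HIST1H2BD, HIST1H2BJ and HIST1H3G. Of the 8 that fell all had long annotated 3' ends, as had 20 of the 27 tested. Of the 4 that rose 3 had short ends. With DESeq2 the counts were 1 higher and 5 lower. Without vector control library 1 there were 0 higher, without parental library 1 there was 1 and without parental library 2 there were 2 higher and 5 lower. Without vector control library 2 there were 4 lower. Of the comparison lists, 4 of 11 histone variant genes were higher and 5 lower, as were 6 and 2 of 14 processing genes, 0 and 3 of 6 chaperones and 3 and 12 of 23 S phase genes, beside the 30.4% and 29.4% of all genes.

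In RWPE-1 no histone gene passed the test between parental cells and metastasis-derived lines. The histone share of protein-coding counts was 0.00908% in the vector control library and 0.00769%, 0.0111%, 0.0186% and 0.0184% in the 4 parental libraries. In the 7 metastasis-derived libraries it ran from 0.00955% (LN1A) through a median of 0.0120% to 0.0363% (Spine2). The groups overlapped. The edgeR test covered 35 members, of which 0 were higher and 0 lower, against 0.0757% and 0.0227% of all 13204 genes tested. DESeq2 also called 0, and at an unadjusted p below 0.05 edgeR found 1. Of the 35, 27 had a positive log2 fold change, with a median of 0.31 against 0.01 for all genes. The median rested on Spine2, without which it was -0.03.

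HIST1H1C had 4.47, 6.60, 10.1 and 10.3 CPM in RWPE-1 parental libraries and a low, median and high of 5.30, 7.81 and 42.9 CPM in the metastasis-derived ones. Spine2 (42.9 CPM) and, by a small margin, Bone5 (10.8 CPM) stood above the parental range, and the log2 fold change was 0.65 ± 0.60 (edgeR adjusted p = 0.839), or -0.12 without Spine2. HIST1H4C had 0.81, 0.33, 0.16 and 0.13 CPM in parental libraries and 0.11, 0.25 and 0.59 CPM (low, median and high) in metastasis-derived ones. The groups overlapped widely (log2 fold change -0.17 ± 0.56, edgeR adjusted p = 0.964), and without parental library 1 the value was 0.60. The histone variant, processing, chaperone and S phase lists had 0 genes called here.

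The RWPE-1 histone shares separated by table and not by stage. All 7 libraries of the 7-library table had shares of 0.0111% to 0.0363%, above the 0.00769% to 0.0104% of the 5-library table. Within the 7-library table the 3 parental libraries (0.0111%, 0.0186% and 0.0184%) overlapped the 4 metastasis-derived ones (0.0120% to 0.0363%), and in the other table the only parental library was below the 3 metastasis-derived ones. For 10 of 35 members, among them HIST1H1D, HIST1H1E, HIST1H2AG and HIST1H2BN, all 7 libraries of the larger table lay above all 5 of the smaller, as they did for 2.46% of all genes tested. HIST1H4C went the other way in level, with 0.11 to 0.33 CPM in the larger and 0.25 to 0.81 CPM in the smaller table. With the table as a term in the fit 0 members were called for stage.

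**Figure D5:**
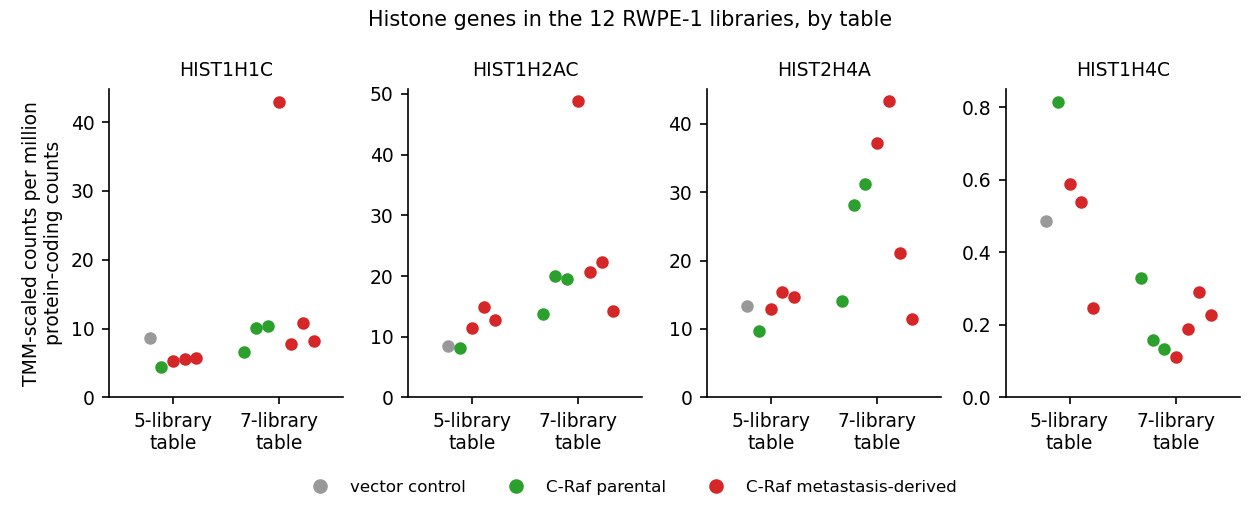
Level of 4 histone genes in the 12 RWPE-1 libraries (TMM-scaled CPM, linear axes from 0), divided by table and colored by group. Spine2 stands at 42.9 for HIST1H1C and 48.8 for HIST1H2AC, and HIST1H4C stays between 0.11 and 0.81 in all libraries.

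Spine2 was the RWPE-1 library with the highest histone level. Its HIST1H2AC level was 48.8 CPM, against 20.7, 22.3 and 14.2 CPM in the other metastasis-derived libraries of its table. HIST1H1C was 5.27 times the median of those 3, HIST1H2BD 3.76 times and HIST1H2BK 3.95 times, whereas HIST2H4A was 1.77 times, below Bone4, and HIST1H4C, at 0.11 CPM, was below all 3. No test was made on this single library.

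The metastasis effect on histone genes differed between the cell lines. The interaction in the edgeR fit over all 24 libraries was positive for 57 of 61 tested members and negative for 0, against 18.5% and 14.6% of all genes, with a median log2 difference of 6.15. Without the shallow libraries it was positive for 56 of 60. Of the 37 members that also passed the filter without the BPH-1 metastasis-derived libraries it was positive for 35. For HIST1H1C the difference was 4.52 (edgeR adjusted p = 0.000434) and for HIST1H4C 9.18 (adjusted p = 1.93e-06). The BPH-1 side of this contrast again compares libraries of different tables, whereas the RWPE-1 side does so only in part, so that the difference between the lines cannot be told apart from that between tables.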

How the data were processed

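RNA was sequenced from 24 libraries in 6 groups, assigned by their labels. The authors deposited 4 tables of RSEM expected counts per gene symbol, and the submitters' processing notes name cutadapt, FastQC, STAR, RSEM and hg38. Versions and strand setting are not given in the sources used here. Expected counts were rounded to whole numbers and kept for protein-coding symbols. edgeR 4.0.16 (R 4.3.3) was used with TMM scaling, filterByExpr and the quasi-likelihood test, with Benjamini-Hochberg adjustment over all genes tested at 0.05. The parental, vector control and RWPE-1 comparisons fitted only their groups, and the comparisons across tables fitted all 24 libraries. Replicates may be technical, as the labels do not name separate cultures. Alternatives were DESeq2 1.42.0, other scalings, filters and gene sets, a table term, a replicate block and each library left out. Replicate numbers did not pair the samples. The named genes were the 4 members of each class with the highest mean CPM over all libraries, with HIST1H4C and HIST1H1C. The members and lists were chosen with earlier results of these data known. Gene positions came from GENCODE version 29 and promoters from RefSeq (GRCh38.p14). Testing steps were tested on simulated data. The level of the targeted gene is not reported here. Depth is given with the results, and no difference was read from a shallow-library level under 3 counts.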

Additional observations from a re-analysis of the deposited data

Results flagged for a closer look

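In groups of 4 to 10 libraries the gap between the most extreme library and the rest was set against the range of the group in 18 tests. Chance gives such a gap in about 5% of tests, and 6 were found. In the BPH-1 metastasis-derived group R072 stood apart for HIST1H1C (464 CPM) and HIST2H2BE (271 CPM). These levels are TMM-scaled, with a factor of 0.617 for R072 against 1.09 for R069 and 1.02 for thymus R075. Without TMM scaling R072 had 286 CPM of HIST1H1C, against 145 CPM in R069 and 177 CPM in thymus R075. For HIST2H2BE the unscaled values were 167, 116 and 128 CPM in the same order. R072 was still the highest for both genes, but by less. Both flags were raised on the TMM-scaled levels only and are not read as outliers of the unscaled ones. In the RWPE-1 metastasis-derived group Spine2 stood apart for the histone share of protein-coding counts (0.0363%), HIST1H1C (42.9 CPM), HIST1H2AC (48.8 CPM) and HIST1H3H (5.25 CPM). The 4 findings in Spine2 come from a single library and are not independent of each other.

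The effect of metastasis on histone genes differed between BPH-1 and RWPE-1 by the interaction in edgeR's quasi-likelihood test, by 4.52 on the log2 scale for HIST1H1C and 9.18 for HIST1H4C. In BPH-1 the stages lie in separate tables.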

How the results depend on the processing

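The rise of the histone genes in the BPH-1 metastasis-derived libraries kept its direction in every fit, with 51 to 58 members higher when 1 library was left out. With only the 3 shallow libraries, an alternative chosen after seeing the data, 21 members were higher of 24 tested, since few members had counts there. The share of all genes called in that fit is not given, so 21 of 24 is not read as particular to histone genes. Between parental cells and vector control, DESeq2 and a fit to all genes of the tables each gave 1 member higher and 5 lower, and leaving out 1 library gave 0 to 4 higher and 4 to 7 lower. The cause was not tested. In RWPE-1, with 1 library left out, the log2 fold change of HIST1H1C ran from -0.12 (without Spine2) to 0.82 and that of HIST1H4C from -0.44 to 0.60 (without parental library 1), with 0 members called. With HIST2H2AA3 and HIST2H2AA4 added the median histone share was 0.00693% in BPH-1 vector control, 0.00591% in parental cells and 0.00958% in RWPE-1 vector control.

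Samples with the same replicate number did not deviate together (correlations 0.042, -0.054 and -0.037), and a fit with the replicate number as a block gave 4 members higher and 8 lower between parental cells and vector control, the same counts as without it. In the shallow libraries 3 counts are 12.4 to 60.6 TMM-scaled CPM. Without Spine2 the median log2 fold change of the members in RWPE-1 was -0.03 in place of 0.31.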

Other observations

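The symbol pattern leaves out HIST2H2AA3 and HIST2H2AA4, replication-dependent H2A genes with a further digit in their name. Together they had 3359 to 12514 counts in the deeper BPH-1 metastasis-derived libraries, 95 to 764 in the other 18 libraries and 2 to 19 in the shallow ones. Set against the counts of the 68 members this was 9.99% to 22.2% in the deeper libraries, 5.29% to 9.49% in the other 18 and 0.147% to 1.31% in the shallow ones. The 3 ranges do not overlap. The shallow counts are limited by depth, and HIST3H2A took 49.3% to 76.0% of the member counts there. Neither the counts nor the shares are therefore read as a lower level of these 2 genes in the shallow libraries.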
